A study of Vuilleminia comedens with 3 samples.

Results

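Transcripts for glutathione S-transferases, for the 2 enzymes that make glutathione and for the peptidases that split it were examined in Vuilleminia comedens growing in beech wood. They were chosen by product name alone. The name of the best match in the deposited annotation had to contain 1 of 8 phrases, from glutathione S-transferase and glutathione synth to glutamate-cysteine ligase, gamma-glutamyltrans and lactoylglutathione. This gave 79 transcripts out of 81106 in the assembly, 22605 of which carried any match. They belonged to 60 assembler genes, and their best matches were 27 database entries.

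V. comedens is a corticioid fungus that decays attached branches of broadleaved trees. The single group was strain VcWVJH1 on autoclaved beech blocks of 2 cm3, colonised for about 8 weeks on plates of 0.5% malt extract and then placed against a block of the same strain for 7 days at 20 °C, with a band around the pair for the first 3 days. RNA came from the part of each block nearest its partner. There were 3 libraries from separate blocks and no second condition, so every spread below is between replicates, and no difference between treatments could be tested.

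Glutathione is a tripeptide of glutamate, cysteine and glycine and the main low-molecular-weight thiol of most fungi. Glutamate-cysteine ligase makes the first bond and glutathione synthase adds glycine. Glutathione S-transferases join glutathione to reactive compounds, or use it to reduce or isomerise them, and wood-decay fungi are known for large transferase families that handle wood extractives and products of lignin breakdown. Gamma-glutamyltranspeptidase opens the bond between glutamate and cysteine, the first step in taking glutathione apart.

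The libraries are called A, B and C, because the deposited count columns had no names and show the group without saying which replicate is which. They held 111754018, 68151997 and 64236917 counts. Outside the 2 most abundant transcripts of the assembly, 33450738, 22487890 and 19747416 counts remained. Levels are given as RPKM, which is reads per kilobase of transcript per 1000000 counts of the library, and CPM is the same without the length. A count of 3 reads, given as a measure of depth and not used as a filter below, corresponded to 0.0268, 0.0440 and 0.0467 CPM in libraries A, B and C.

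The 79 members together took 174761, 113586 and 98066 reads in libraries A, B and C. That was 0.156% of all counts for A, with an exact 95% binomial interval of 0.156 to 0.157. The share was 0.167% for B (0.166 to 0.168) and 0.153% for C (0.152 to 0.154). Without molecular identifiers these intervals reflect counting error alone. Relative to the counts outside the 2 most abundant transcripts the shares were 0.522%, 0.505% and 0.497%. Summed over members, the level was 1825, 1853 and 1864 RPKM in A, B and C, with a mean of 1847 RPKM ± 20.4 (SD, n = 3). With this scaling by library totals the libraries were close, with the highest sum 1.02 times the lowest. The SD of the sum was 58.7 RPKM with TMM scaling and 48.5 RPKM with DESeq2 size factors. Relative to the counts outside the 2 most abundant transcripts the sum was 5925 RPKM ± 269 (SD, n = 3), also a larger spread for its mean than with library totals.

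The sum came from few transcripts. The 10 highest members carried 86.4% of the summed RPKM and the 3 highest 57.0%. Mean levels of at least 10 RPKM were reached by 16 of the 79, or 20.3%, against 10.8% of all annotated transcripts. The last of these had 10.7 RPKM and the next member 9.94 RPKM. Another 17 members lay between 1 and 10 RPKM, so 33 of 79, or 41.8%, reached at least 1 RPKM, against 37.9% of annotated transcripts. The other 46 lay under 1 RPKM and together held 0.802% of the sum. Of the 79, 20 had 0 reads in at least 1 library, or 25.3%, against 34.2% of annotated transcripts. A total below 10 reads was found in 11, or 13.9%, against 20.8%.

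By name, 64 members were transferases, 11 gamma-glutamyltranspeptidases and 4 enzymes of synthesis. The 64 include 35 named C-terminal-like protein and 6 named -like protein, and whether these act as transferases was not tested. No product name contained lactoylglutathione. Transferases summed to 1696, 1681 and 1754 RPKM in A, B and C, gamma-glutamyltranspeptidases to 96.7, 130.3 and 79.2 RPKM, and synthesis enzymes to 32.5, 41.9 and 31.2 RPKM. The order of these sums was thus the same in each library, with no overlap between them. The sums cover unequal numbers of transcripts. The median transcript had 0.859, 0.595 and 0.802 RPKM among transferases and 0.339, 0.328 and 0.126 RPKM among peptidases. It was higher among the 4 synthesis transcripts, at 4.43, 3.98 and 3.21 RPKM in A, B and C. The ratio of summed transferase to summed synthesis levels was 52.2 for A, 40.1 for B and 56.2 for C, a mean of 49.5 ± 8.39 (SD, n = 3). The ratio was 17.3 with reads summed without the length and 33.4 without the most abundant transferase. It was 10.2 among matches to Punctularia strigosozonata alone, a fungus of the same order as V. comedens. With 3 libraries no paired permutation test can reach p = 0.05, and none was made.

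**Figure D1:**
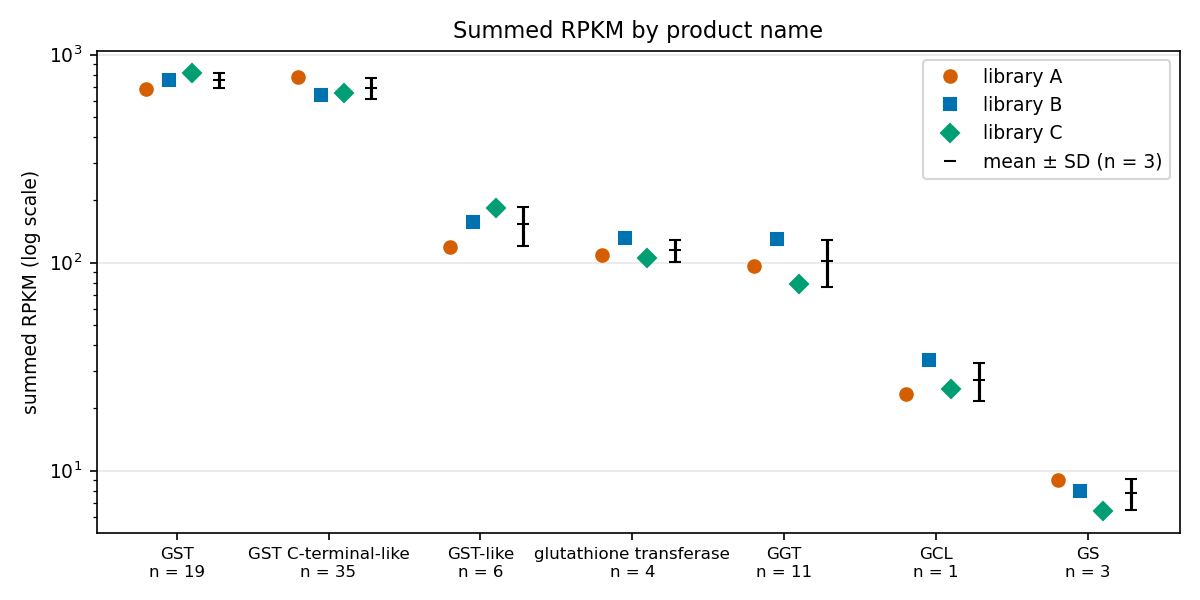
Summed RPKM (log scale) of the members by product name, with a symbol for each library and the mean ± SD (n = 3) beside it; GST is glutathione S-transferase, GGT gamma-glutamyltranspeptidase, GCL glutamate-cysteine ligase and GS glutathione synthase, and n under each name is the number of transcripts. The plain GST and GST C-terminal-like names each sum to between 637 and 816 RPKM, and the only GCL transcript to between 23.4 and 33.9 RPKM.

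Synthesis was represented by a long transcript for each step. The catalytic subunit of glutamate-cysteine ligase, which performs the rate-limiting step of glutathione synthesis, was matched by TRINITY_DN28460_c0_g1_i1 of 2256 bp (best match PUNSTDRAFT_118964 of P. strigosozonata). It had 5912, 5214 and 3591 reads in A, B and C, which is 23.4, 33.9 and 24.8 RPKM. Library B was the highest and the other 2 lay close together. The mean was 27.4 RPKM ± 5.70 (SD, n = 3), above 95.2% of annotated transcripts.

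Glutathione synthase, the second enzyme, was matched by TRINITY_DN23784_c0_g1_i1 of 1298 bp (PUNSTDRAFT_96852). It had 1260, 705 and 516 reads, or 8.69, 7.97 and 6.19 RPKM, with library A highest and library C lowest. Its mean of 7.61 RPKM ± 1.29 (SD, n = 3) was below that of the ligase, which was the higher of the 2 in each library. The remaining synthesis members were 2 fragments of 210 and 242 bp whose best match was a glutathione synthase of Trametes versicolor, a white-rot polypore. They had 4, 0 and 3 reads and 4, 0 and 0 reads in libraries A, B and C, so their levels were at the limit of the depth.

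Among the transferases the plain name glutathione S-transferase covered 19 transcripts, the name with C-terminal-like protein 35, the name with -like protein 6 and glutathione transferase 4. Their sums were 752 RPKM ± 65.8, 690.1 ± 80.7, 153 ± 31.9 and 115 ± 14.0 (SD, n = 3). The first rested mainly on 1 cluster of related transcripts and the second on 1 transcript.

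The highest member was TRINITY_DN22268_c0_g1_i1 of 787 bp, a C-terminal-like protein, so named after the part of the transferase fold that holds the pocket for the compound to be conjugated. It had 54511, 27856 and 26536 reads in A, B and C, which is 619.8, 519 and 525 RPKM. Library A was highest and libraries B and C differed little. The mean was 555 RPKM ± 56.5 (SD, n = 3), which ranked 20 among the 22605 annotated transcripts. Its share of all member reads was 31.2% for A, with an exact 95% interval of 31.0 to 31.4. The share was 24.5% for B (24.3 to 24.8) and 27.1% for C (26.8 to 27.3). These intervals, too, reflect counting error alone, and the SD between the libraries was 3.37 percentage points (n = 3).

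The T. versicolor entry matched by this transcript was also the best match of 13 other members, which makes it the most often matched entry of the set. Of those 13, TRINITY_DN24259_c0_g1_i2 and TRINITY_DN24259_c0_g1_i1 stood out. They are isoforms of the same assembler gene, of 1002 and 949 bp. The first had 57.5, 39.5 and 42.9 RPKM and the second 58.6, 40.1 and 40.3 RPKM in A, B and C. Library A was highest for both, as for TRINITY_DN22268_c0_g1_i1. The means were 46.6 RPKM ± 9.53 and 46.3 RPKM ± 10.6 (SD, n = 3). The read ratio of the isoforms was nearly constant at 1.04, 1.04 and 1.12, and the rule for reads common to isoforms is not stated in the labels or file headers. The other 11 matches to this entry had mean levels from 0.125 to 1.18 RPKM.

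The assembler cluster TRINITY_DN25272_c0 held 5 transcripts in 3 assembler genes, all named glutathione S-transferase. It summed to 642, 716 and 773 RPKM in A, B and C, with library A lowest and library C highest. The mean was 709.9 RPKM ± 65.7 (SD, n = 3), or 38.4% of the summed member RPKM but only 21.6% of the member reads, because its transcripts were short, from 245 to 565 bp. TRINITY_DN25272_c0_g2_i2 had 13518, 9638 and 10343 reads, or 214, 250.3 and 285 RPKM, with a mean of 249.8 RPKM ± 35.4 (SD, n = 3). TRINITY_DN25272_c0_g2_i1 had 215, 263 and 269 RPKM, with a mean of 249 RPKM ± 29.6 (SD, n = 3). These isoforms did not differ beyond their spread. The best match of the first was PUNSTDRAFT_109301 of P. strigosozonata and that of the second a T. versicolor entry, although both belong to the same assembler gene.

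Another assembler gene of the cluster had isoforms that were less abundant. TRINITY_DN25272_c0_g1_i2 had 106, 94.2 and 111 RPKM in A, B and C, a mean of 104 RPKM ± 8.75 (SD, n = 3). TRINITY_DN25272_c0_g1_i1 had 74.0, 61.5 and 68.7 RPKM, a mean of 68.1 RPKM ± 6.27 (SD, n = 3). Library B was lowest for both, whereas library A was lowest for the gene described before. The fifth transcript of the cluster, TRINITY_DN25272_c0_g3_i1, had only 245 bp and a mean of 39.3 RPKM. It was added here after its value was seen, to complete the cluster.

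Next in level was TRINITY_DN26085_c0_g1_i1 of 896 bp, matched to the glutathione S-transferase-like protein STEHIDRAFT_150312 of Stereum hirsutum. It had 11563, 9359 and 10270 reads, or 115, 153 and 178 RPKM, so library C was 1.55 times library A. The mean was 149 RPKM ± 31.7 (SD, n = 3). TRINITY_DN24274_c0_g1_i1 of 965 bp, matched to the glutathione transferase PUNSTDRAFT_95019, had 75.9, 105 and 75.6 RPKM, with library B apart from the other 2. Its mean was 85.5 RPKM ± 16.8 (SD, n = 3).

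A middle range of transferases lay near 10 RPKM. TRINITY_DN23632_c0_g1_i1, whose best match was a putative transferase of Neofusicoccum parvum, an ascomycete, had 13.8, 13.9 and 15.4 RPKM. Its libraries were within 1.12-fold of each other, the smallest ratio among members with at least 100 reads in every library. TRINITY_DN25152_c0_g2_i1, a glutathione transferase with T. versicolor as best match, had 12.1, 9.83 and 10.3 RPKM. It was 1 of 3 isoforms that summed to 29.5 RPKM ± 3.42 (SD, n = 3).

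The largest cluster by number, TRINITY_DN27850_c0, held 10 transcripts of 3 assembler genes and reached at least 10 reads in every library with all of them. Its sum was nevertheless small, at 52.5, 46.1 and 53.4 RPKM, or 2.74% of the member RPKM. TRINITY_DN27850_c0_g3_i2, best matched by a transferase of Coniophora puteana, had 8.86, 7.66 and 8.67 RPKM. TRINITY_DN27850_c0_g1_i1, matched to PUNSTDRAFT_42595, had 6.04, 6.48 and 7.10 RPKM. Each varied by less than 1.2-fold between libraries. Members of this single cluster had best matches in 3 species.

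The second S. hirsutum entry, STEHIDRAFT_97005, was the best match of 5 transcripts with means up to 1.61 RPKM. The highest was TRINITY_DN33871_c0_g1_i1 of 367 bp, with 51, 46 and 41 reads or 1.24, 1.84 and 1.74 RPKM in A, B and C. The longest member of all, TRINITY_DN29929_c0_g1_i1, had 4279 bp and a mean of 6.52 RPKM under the name glutathione S-transferase. It was singled out for its length after the values were seen.

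**Figure D2:**
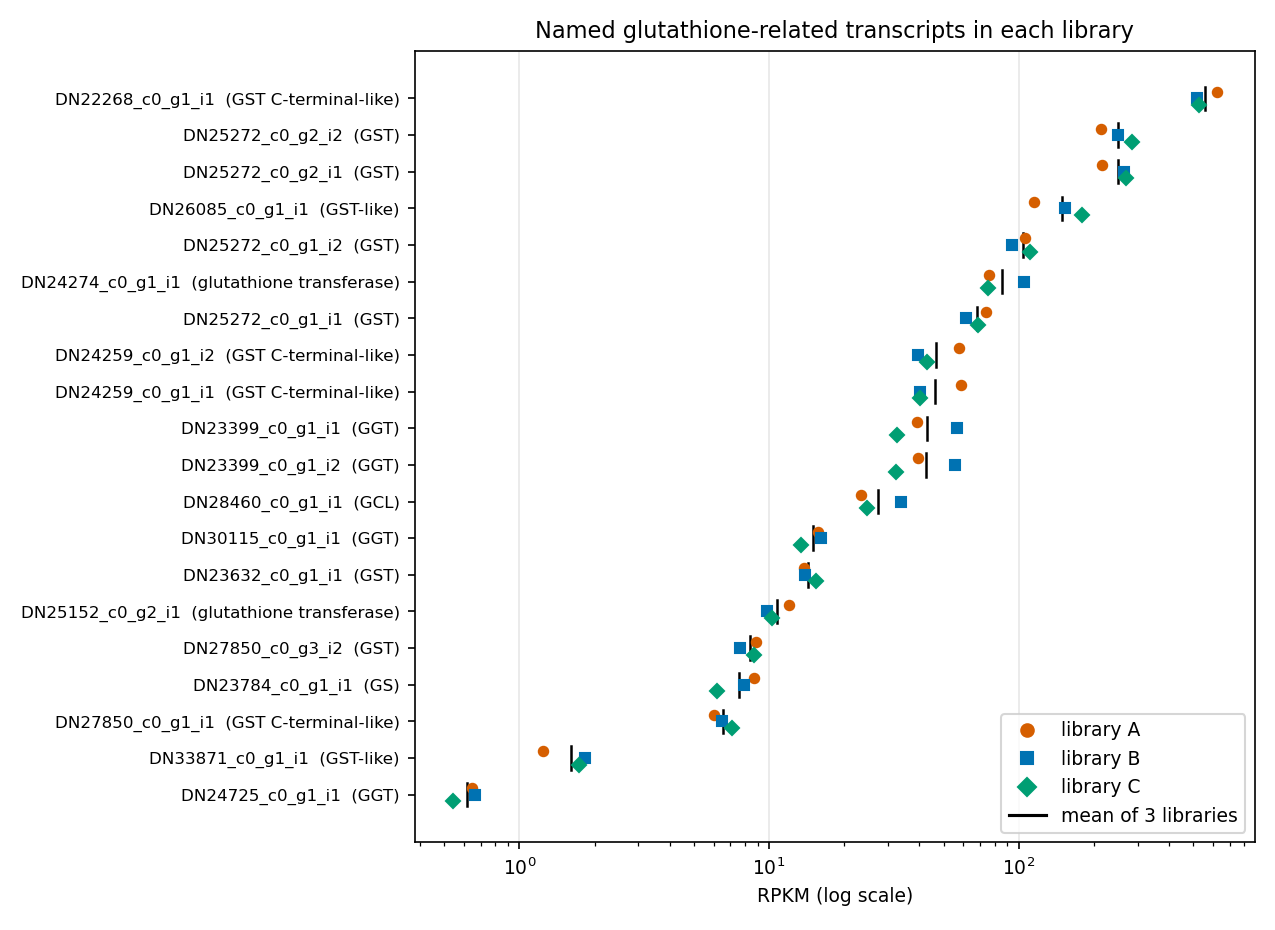
RPKM (log scale) of the 20 named members in each library, ordered by their mean, which is drawn as a black bar; names leave out the prefix TRINITY_, and abbreviations are GST for glutathione S-transferase, GGT for gamma-glutamyltranspeptidase, GCL for glutamate-cysteine ligase and GS for glutathione synthase. The means run from 0.616 to 555 RPKM, a far wider range than that between libraries for any 1 of these 20.

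Gamma-glutamyltranspeptidases were led by the isoforms TRINITY_DN23399_c0_g1_i1 and TRINITY_DN23399_c0_g1_i2, of 3071 and 3229 bp, both matched to PUNSTDRAFT_129746. The first had 13486, 11819 and 6443 reads, or 39.3, 56.5 and 32.7 RPKM in A, B and C. The second had 14236, 12283 and 6669 reads, or 39.5, 55.8 and 32.2 RPKM. Library B was highest and library C lowest, and the ratios between them, 1.73 and 1.74, were the largest among members with at least 100 reads in every library. The means were 42.8 RPKM ± 12.3 and 42.5 RPKM ± 12.1 (SD, n = 3). The read ratio of the isoforms was 1.06, 1.04 and 1.04 in the 3 libraries, so they give little independent information. Because of their length they took 16.8% of member reads but 4.62% of the member RPKM.

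A second peptidase, TRINITY_DN30115_c0_g1_i1 of 2161 bp with a T. versicolor best match, had 15.7, 16.1 and 13.4 RPKM, or 15.05 RPKM ± 1.46 (SD, n = 3). The entry PUNSTDRAFT_141766 was matched by 5 transcripts in 5 assembler genes. Only TRINITY_DN24725_c0_g1_i1 had at least 10 reads in every library, with 83, 52 and 40 reads or 0.645, 0.663 and 0.541 RPKM. The rest of the 11 peptidase transcripts were fragments with between 8 and 23 reads in total.

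Which library was highest differed between product names. Sums for the C-terminal-like proteins were 783, 637 and 651 RPKM in A, B and C, highest in A. Sums for the plain glutathione S-transferases were 685, 756 and 816 RPKM and those for the -like proteins 119, 157 and 182 RPKM, both lowest in A and highest in C. Most of these sums came from TRINITY_DN22268_c0_g1_i1, the cluster TRINITY_DN25272_c0 and TRINITY_DN26085_c0_g1_i1, in that order of names. The contrast is thus between a few transcripts more than between whole product names. Of the 6 synthesis and peptidase members with at least 10 reads in every library, 5 had their highest CPM in library B, against 7 of 39 transferases and 44.9% of annotated transcripts with as many reads. With TMM scaling or DESeq2 size factors the number was 3 of 6, against 38.5% and 40.0% of annotated transcripts, so it rested on the scaling. With library totals the differences between product names cancelled in the total, which moved by 1.02-fold. With the other 2 scalings the total had a larger SD between libraries. All these differences are between replicates of the same condition and rest on 1 library each, and no test was made.

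The spread of single members was then set beside that of other transcripts. At least 10 reads in every library were counted for 45 of the 79 members, or 57.0%, against 53.9% of annotated transcripts. Of these 45, 2 differed by more than 2-fold between the highest and the lowest library, or 4.44%, against 17.5% of annotated transcripts and 24% of all transcripts with as many reads. They were TRINITY_DN25336_c0_g2_i1, with 74, 13 and 79 reads, and TRINITY_DN22049_c0_g1_i2, with 86, 21 and 34 reads, in libraries A, B and C. Both were low in library B and both are named after their values were seen. The number was 1 without library A, 1 without library B and 4 without library C, and 0 with at least 50 reads in every library. The share of annotated transcripts is not given for these settings, so they show only how the members' own count moved. The shares of 4.44%, 17.5% and 24% are not matched for read depth. The 45 members are also not independent, since they include 10 transcripts of the cluster TRINITY_DN27850_c0 and 5 of TRINITY_DN25272_c0. The biological coefficient of variation, which edgeR estimates after counting noise is removed, had a median of 0.253 over the 45 members. It ran from 0.234 to 0.460, and the median over the 12190 annotated transcripts in the same fit was 0.260. With 3 libraries edgeR draws each estimate strongly towards the fit over all transcripts. The nearness of the 2 medians therefore does not measure the members' own spread. TRINITY_DN22268_c0_g1_i1, for example, had the lowest value, 0.234, although its SD between libraries was 10.2% of its mean RPKM.

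**Figure D3:**
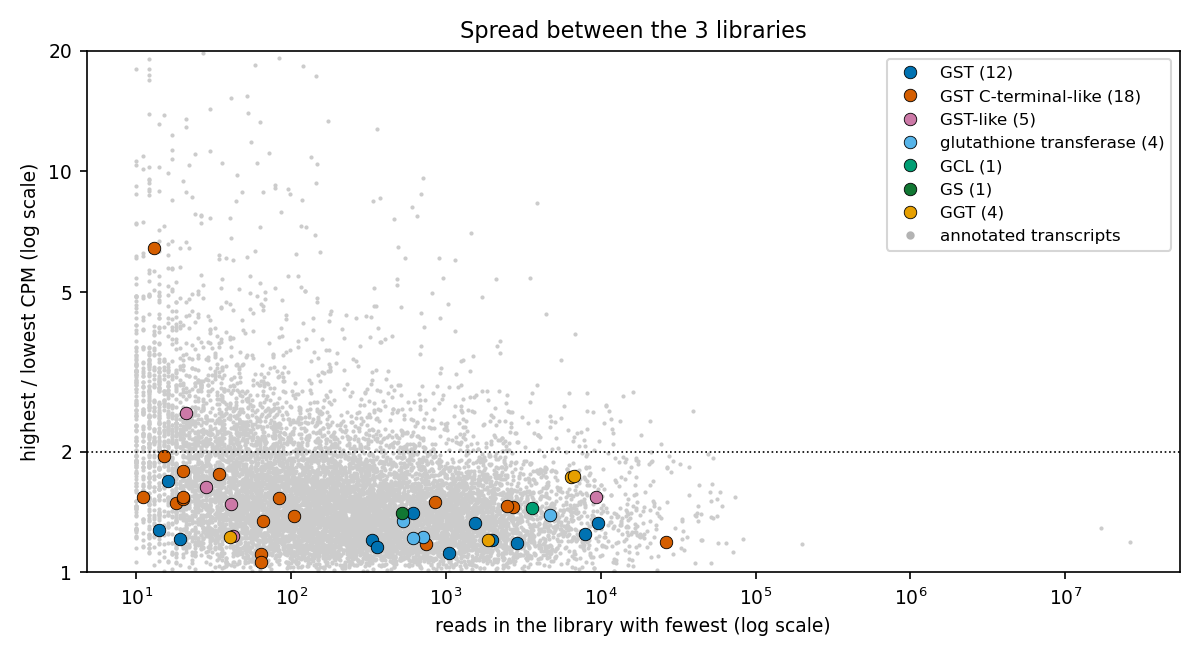
Ratio of the highest to the lowest CPM (log scale) against the reads in the library with fewest (log scale), for the 45 members with at least 10 reads in every library, coloured by product name, and for annotated transcripts in grey, 13 of which lie above the axis limit of 20. The dotted line marks a ratio of 2, which 2 members exceed, both with few reads.

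In 3 of the 61 members with at least 20 reads, or 4.92%, a single library held over 90% of the reads after scaling for depth, against 3.14% of annotated transcripts. This library was A for 2 members, or 3.28%, against 2.82%, and B for 1 member, or 1.64%, against 0.29%. Among T. versicolor matches the number was 2 of 36 members, or 5.56%, against 8.83%. TRINITY_DN7225_c0_g1_i1 had 30, 2 and 0 reads and TRINITY_DN47809_c0_g1_i1 had 24, 1 and 0 reads, both mostly in library A and both with T. versicolor as best match. TRINITY_DN31848_c0_g1_i1, matched to a transferase of the mould Neosartorya fischeri, had 2, 28 and 0 reads, mostly in library B. It was the only transcript in the whole annotation whose best match came from that species. None of the 3 had 100 reads, and they were picked out after their values were seen.

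The species of the best match, which the choice of names did not use, was T. versicolor for 49 of the 79 members, or 62.0%, against 51.2% of annotated transcripts. P. strigosozonata was the best match of 14 members, or 17.7%, against 42.2%. Another 6 matched S. hirsutum, 3 Dichomitus squalens, 2 each C. puteana and Gloeophyllum trabeum, and 1 each Moniliophthora roreri, N. parvum and N. fischeri. The 49 T. versicolor matches had a median length of 442 bp, beside 342 bp for all annotated transcripts with a match in that species. At least 10 reads in every library were counted for 24 of them, or 49.0%, against 27% of annotated transcripts with a T. versicolor match. The 14 P. strigosozonata matches had a median length of 1058 bp, beside 1327 bp in the annotation, and 9 of them, or 64.3%, had as many reads, against 84.6%. The median level of the T. versicolor matches was 0.496 RPKM ± 0.165 (SD, n = 3). In the whole annotation that median was 0.303, 0 and 0.0837 RPKM in A, B and C. The median of the P. strigosozonata matches was 6.65 RPKM ± 0.340, beside 1.58 RPKM ± 0.0591 in the annotation (SD, n = 3). The annotation as a whole thus had the same order of the 2 species in length, reads and level. The T. versicolor matches still held 64.3% of the summed member RPKM. TRINITY_DN22268_c0_g1_i1 alone held 30.0% of that sum and the 4 transcripts of the cluster TRINITY_DN25272_c0 with a T. versicolor match 24.9%. A best match names the nearest entry of the searched database and not the organism the RNA came from, and which of these applies to the short transcripts was not tested.

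Length divided the members further. The median level of all 79 was 0.655 RPKM ± 0.0783 (SD, n = 3), beside 0.500 RPKM ± 0.0768 for annotated transcripts. Of the 39 members of at least 500 bp, 31 had at least 10 reads in every library, or 79.5%, against 87.9% of annotated transcripts of that length. Their median was 6.03 RPKM ± 0.457, beside 1.62 RPKM ± 0.0765 (SD, n = 3). Of the 40 shorter members 14 had as many reads, or 35%, against 10.6%. Their median was 0.573, 0.313 and 0.222 RPKM in A, B and C, beside 0.235, 0 and 0 RPKM for annotated transcripts under 500 bp. The shorter group includes 4 transcripts of the cluster TRINITY_DN25272_c0 and 5 of TRINITY_DN27850_c0, so its members share sequences and are not independent.

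**Figure D4:**
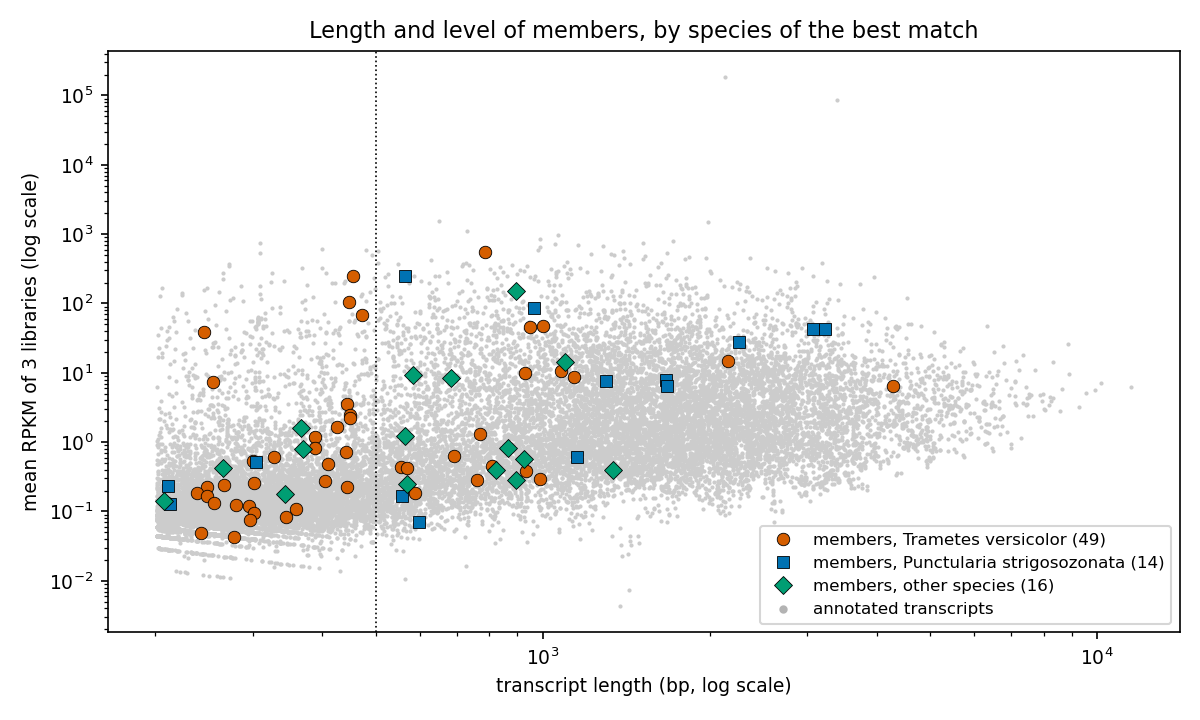
Mean RPKM of the 3 libraries (log scale) against transcript length (log scale), for members by species of the best match and for all annotated transcripts with reads in grey; the dotted line marks 500 bp. Of the 49 T. versicolor matches 30 lie under 1 RPKM, 22 of these shorter than 500 bp, whereas the highest member of all, at 555 RPKM, also has a T. versicolor match. The other 19 reach at least 1 RPKM, against 2178 of the 11569 annotated transcripts with a match in that species.

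Other enzymes that use, renew or move glutathione were counted from lists of product names that do not include the members. Glutathione-disulfide reductase, glutathione peroxidase and glutaredoxin (21 transcripts, 8 of them with at least 10 reads in every library) summed to 237, 202 and 198 RPKM in A, B and C. The mean was 212 RPKM ± 21.6 (SD, n = 3), below that of the transferases in every library. The reductase, which returns oxidised glutathione to its thiol form, summed to 34.8 RPKM ± 5.62, and the peroxidase, which reduces hydroperoxides, to 113 RPKM ± 2.25 (SD, n = 3). The highest peroxidase transcript, TRINITY_DN24811_c0_g2_i1, had 77.7, 71.5 and 70.8 RPKM. Glutaredoxins reduce disulfides with glutathione, and TRINITY_DN13275_c0_g1_i1 (PUNSTDRAFT_96140) had 71.3, 30.2 and 36.8 RPKM, with library A apart from the others.

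The glyoxalase system turns methylglyoxal, a toxic by-product of sugar breakdown, into lactate with the help of glutathione. Its first enzyme, also called lactoylglutathione lyase, appeared in the annotation under the name glyoxalase I and was therefore not a member. TRINITY_DN346_c0_g1_i1 (PUNSTDRAFT_111612) had 196, 269 and 166 RPKM in A, B and C, a mean of 210.2 RPKM ± 52.8 (SD, n = 3). Its mean lay below those of the TRINITY_DN25272_c0_g2 isoforms, at 249.8 and 249 RPKM, and above that of TRINITY_DN26085_c0_g1_i1, at 149 RPKM. Hydroxyacylglutathione hydrolase, the second enzyme, was represented by TRINITY_DN23659_c0_g1_i1 (PUNSTDRAFT_53109) at 51.0, 40.6 and 35.5 RPKM. The list of 7 transcripts summed to 269.5 RPKM ± 53.4 (SD, n = 3) and held 2 isoforms named for bleomycin resistance, a protein family that shares the fold.

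Oligopeptide transporters, a family that takes up glutathione in Saccharomyces cerevisiae, made up 115 of 130 transcripts in the list for breakdown and transport and summed to 822 RPKM ± 68.4 (SD, n = 3). TRINITY_DN29576_c4_g1_i1 (PUNSTDRAFT_128027) had 226, 265 and 224 RPKM, and TRINITY_DN27204_c0_g1_i1 (PUNSTDRAFT_53265) 166, 151 and 90.5 RPKM. Whether they carry glutathione in V. comedens is not measured here. Products named oxoprolinase, which opens the cyclic glutamate left by glutathione turnover, had 12 transcripts in that list at 22.6 RPKM ± 5.18 (SD, n = 3). The same list also took in the 3 hydroxyacylglutathione hydrolase transcripts.

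The list for cysteine supply (28 transcripts) summed to 146 RPKM ± 20.7 (SD, n = 3). Its highest transcript, TRINITY_DN24882_c0_g1_i1 (PUNSTDRAFT_86843), an S-adenosyl-L-homocysteine hydrolase of the methyl cycle, had 46.1, 52.4 and 83.6 RPKM. The assimilatory sulfite reductase TRINITY_DN29596_c0_g1_i1 (PUNSTDRAFT_84767), which makes sulfide for cysteine, had 11.4, 16.6 and 16.7 RPKM. The thioredoxin list (29 transcripts), the other thiol system of the cell, summed to 239 RPKM ± 23.6 (SD, n = 3). The thioredoxin TRINITY_DN21088_c0_g1_i1 (PUNSTDRAFT_49094) had 74.4, 66.7 and 90.3 RPKM and the thioredoxin reductase TRINITY_DN20947_c0_g1_i1 (PUNSTDRAFT_61123) 26.0, 36.0 and 39.1 RPKM. A transcript named phosphoadenosine phosphosulfate reductase thioredoxin stands in both of these lists. No product name contained glutathionyl, the word for the reductases of glutathionyl-hydroquinones.

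**Figure D5:**
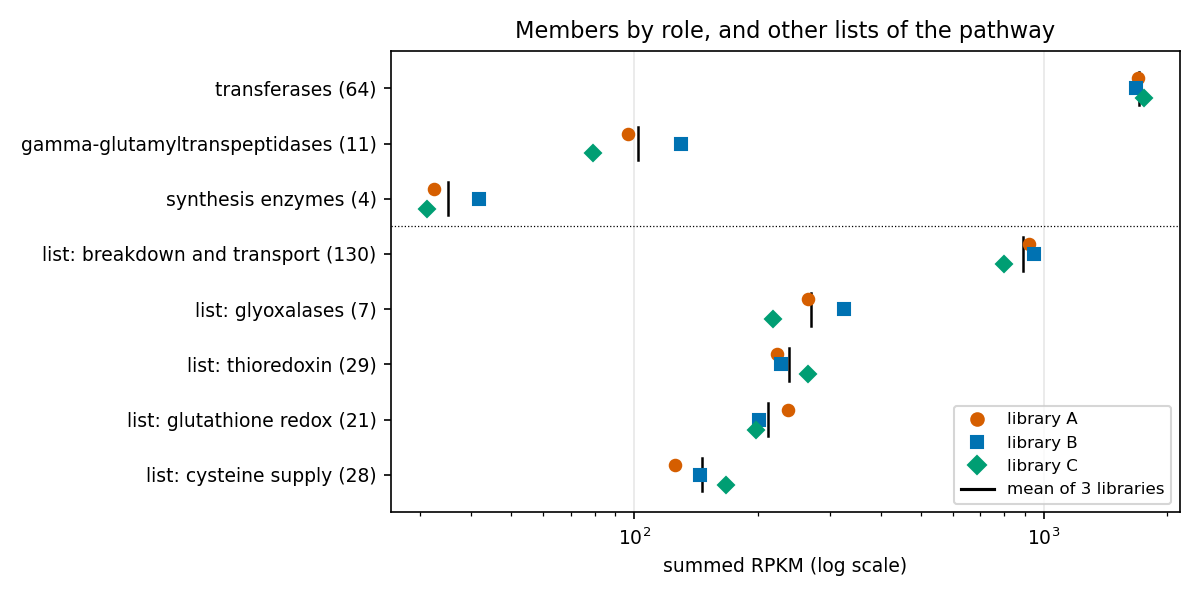
Summed RPKM (log scale) of the members by role, above the dotted line, and of the other lists of the pathway, below it, with a symbol for each library, a black bar for the mean and the number of transcripts in parentheses; the list of glyoxalases includes glyoxalase I. Transferases have the highest sum in each library and the 4 synthesis transcripts the lowest.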

How the data were processed

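Poly(A) RNA from 3 blocks was sequenced as stranded paired reads of 125 bp, per the labels' protocols. The authors deposited whole-number counts per assembled transcript, not normalised, and transcript lengths (other values). SAMtools 0.1.19, Bowtie2 2.2.6 and cutadapt 1.2.1 are listed without roles, per the submitters' processing notes. Neither the assembler nor the counting rule (strand, shared reads) is given in the sources used here. Per the file headers, the annotation is a search against a database of the authors' own. Its 29875 lines gave 22605 transcripts with 1 match each.

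CPM and RPKM used library totals. Dispersion was estimated with edgeR 4.0.16 (intercept only, TMM) over transcripts reaching 10 reads in every library. Alternatives used TMM, DESeq2 1.42.0, other filters and each library left out. The median dispersion and the 2-fold count were tested on simulated counts with the same coefficient of variation for all transcripts. Transcripts changed in that simulation were expected to have at least 50 reads in every library, and false calls were checked only at far higher counts. The simulation thus does not cover the 2 members over 2-fold, which had 13 and 21 reads in their lowest library. Recovery of differing coefficients was not tested, and the shares, ratios and lists were not simulated.

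Named members were the 10 highest by RPKM (at least 300 bp and 100 reads), the 2 highest of each role or product name, every synthesis or peptidase member with at least 10 reads in every library, the 3 largest and 3 smallest library ratios, and members of at least 100 reads mostly in 1 library, of which there were 0. Members, lists and rules were chosen with earlier results of these data known. With 1 group, no test was made.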

Additional observations from a re-analysis of the deposited data

How the results depend on the processing

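Scaling by TMM or DESeq2 size factors moved the mean of the summed and of the median member RPKM by less than the spread between libraries. Both scalings keep the average library size near that of the totals, with TMM factors of 0.988, 1.04 and 0.978 in A, B and C. A mean over all 3 libraries could therefore hardly move, and its steadiness is no check of the scaling. The SD of the sum was larger, at 58.7 RPKM with TMM and 48.5 RPKM with DESeq2 size factors against 20.4 RPKM with library totals. Leaving out a library gave sums of 1839 to 1859 RPKM, medians of 0.625 to 0.699 RPKM, transferase to synthesis ratios of 46.2 to 54.2 and 45 to 50 members with at least 10 reads in every library. The share of reads in the highest member ran from 25.8% to 29.1% and the median coefficient of variation from 0.2498 to 0.284; with a filter of only 10 reads in total it was 0.356. The number of members over 2-fold ran from 1 to 4 when a library was left out. With reads divided by the counts outside the 2 most abundant transcripts, a smaller denominator, the sum was 5925 RPKM ± 269 (SD, n = 3) and the median 2.11 RPKM. Members of at least 500 bp summed to 1359 RPKM with a median of 6.03, a ratio of 35.7 and 31.8% of reads in the highest. P. strigosozonata matches alone summed to 472 RPKM, with a median of 6.65 and a ratio of 10.2. The median was 6.81 RPKM for members with at least 10 reads in every library and 0.572 RPKM with reads summed by assembler gene. The ratio was 17.3 without the length and 33.4 without the highest member. All 79 members had at least 1 read, and 29 assembler genes had at least 10 reads in every library. Over 2-fold were 0 members with at least 50 reads and 31 with no filter and 1 read added, and 0 members of at least 100 reads were mostly in 1 library. Shares of annotated transcripts are not given for these settings, so the counts do not set the members apart from other transcripts. For each of the 20 named members TMM moved the mean RPKM by less than 1 SD, which is no check of the scaling for the same reason. Leaving out a library moved the mean by at most 1.19-fold. Where more than the number of members or the denominator changed, the cause was not tested. No paired analysis was possible because there is 1 group and no second condition to pair its replicate numbers with; transferases and synthesis enzymes of the same library are given as ratios without a test.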
